A study of Homo sapiens with 4 samples.

Results

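On the long arm of chromosome 19, in band q13, the ovarian cancer line OVCAR-3 carried a dense field of H3K27ac peaks. The window described here runs from 38 to 40 Mb of chromosome 19 in the hg19 build. It was selected on the density of the OVCAR-3 peaks, so their number in it, and what follows from that number, is a description of the choice and not a tested result. Its members are the 1506 OVCAR-3 peaks whose summits lie in the window, out of 76093 OVCAR-3 peaks and 251138 peaks in all 4 lines. They make up 1.98% of the OVCAR-3 peaks of the genome and 28.1% of those on chromosome 19.

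The data are H3K27ac ChIP-seq peak lists of 4 established human cancer cell lines, made with the antibody ab4729. OVCAR-3 was grown in RPMI 1640 medium and SKOV-3, the other ovarian line, in McCoy's 5a medium. The prostate line DU-145 was grown in Eagle minimal essential medium and the colon line COLO-205 in RPMI, and every medium held FBS. No line carries a treatment or an engineered allele, and each line is 1 library with no replicate, so no spread between samples and no test can be given. The 95% intervals below are exact Clopper-Pearson intervals for shares and order-statistic intervals for medians. They cover counting error only, and neighbouring peaks of 1 library are not independent.

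H3K27ac is the acetylation of lysine 27 of histone H3, which is laid down by the acetyltransferases p300 and CBP and marks active promoters and enhancers. Most cells carry it as separate peaks at gene starts and distal elements, while broad stretches are known from strongly active loci. Band 19q13 is rich in genes. The window starts in a cluster of KRAB zinc finger genes, whose proteins are mostly repressors of transposable elements, and goes on through widely expressed genes such as HNRNPL, PAF1 and SUPT5H, muscle and testis genes such as RYR1 and CATSPERG, the galectin genes and the type III interferon genes. Gains of stretches of 19q are known in ovarian carcinoma. A peak list does not measure the number of DNA copies, so more copies and more acetylation per copy cannot be told apart here.

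Sequences show what lies under and between these peaks. The first stretch below is 151 bp of the GRCh37 plus strand around the summit of the OVCAR-3 peak of highest fold enrichment among the window peaks whose printed stretch holds no exon and that met peaks of all 3 other lines. Capitals mark CpG dinucleotides, the sites of DNA methylation in vertebrates.
ACTN4 intron, chr19:39173953-39174103: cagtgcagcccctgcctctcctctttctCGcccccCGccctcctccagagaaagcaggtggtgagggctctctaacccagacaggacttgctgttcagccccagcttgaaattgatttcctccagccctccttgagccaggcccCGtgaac
For contrast, the next 2 stretches of the same length are the middles of long gaps without any OVCAR-3 peak, in introns of the zinc finger genes ZFP30 and ZNF573.
ZFP30 intron, chr19:38162078-38162228: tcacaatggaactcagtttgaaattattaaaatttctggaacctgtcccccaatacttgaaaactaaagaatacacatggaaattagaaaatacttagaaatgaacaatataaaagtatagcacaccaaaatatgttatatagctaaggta
ZNF573 intron, chr19:38231965-38232115: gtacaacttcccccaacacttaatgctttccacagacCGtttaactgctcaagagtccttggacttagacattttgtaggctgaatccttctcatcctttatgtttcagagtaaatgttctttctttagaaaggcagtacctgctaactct
The GC content was 60.9% in the ACTN4 stretch, 28.5% in the ZFP30 gap and 40.4% in the ZNF573 gap. The ACTN4 peak is an example and not typical, since the median window peak had a GC content of 52.8% and the upper quartile was 57.5%, both over 150 bp on each side of the summit. The ZFP30 gap is not typical either. Window stretches of that longer length wholly outside OVCAR-3 peaks had a median of 41.9% and a lower quartile of 36.5%. Both gaps lie in the zinc finger cluster.

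The OVCAR-3 peaks covered 1191847 bp, 59.6% of the window, against 5.05% of the rest of chromosome 19. There were 753 peaks per Mb in the window and 67.5 per Mb on the rest of the chromosome, an 11.2-fold difference (the value by which the window was chosen). In the same window DU-145 had 225 peaks over 6.95% of the bases, COLO-205 had 176 over 3.11% and SKOV-3 had 53 over 0.968%. These lines also had more peaks per Mb in the window than on the rest of chromosome 19, by 3.09-fold in COLO-205, 2.23-fold in DU-145 and 1.91-fold in SKOV-3. Most of this lay in the upper part of the window, with 1.298-fold from 38 to 39 Mb and 4.87-fold from 39 to 40 Mb in COLO-205, and 1.37-fold and 3.10-fold in DU-145. OVCAR-3 thus had 6.69 times as many window peaks as DU-145, 8.56 times as many as COLO-205 and 28.4 times as many as SKOV-3, although its whole list was of about the length of those of DU-145 (75468 peaks) and COLO-205 (85576 peaks) and only the SKOV-3 list was short (14001 peaks). The depth recovered from the lists was 34200000 ChIP tags in OVCAR-3, 29800000 in COLO-205, 36000000 in DU-145 and 22400000 in SKOV-3.

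**Figure D1:**
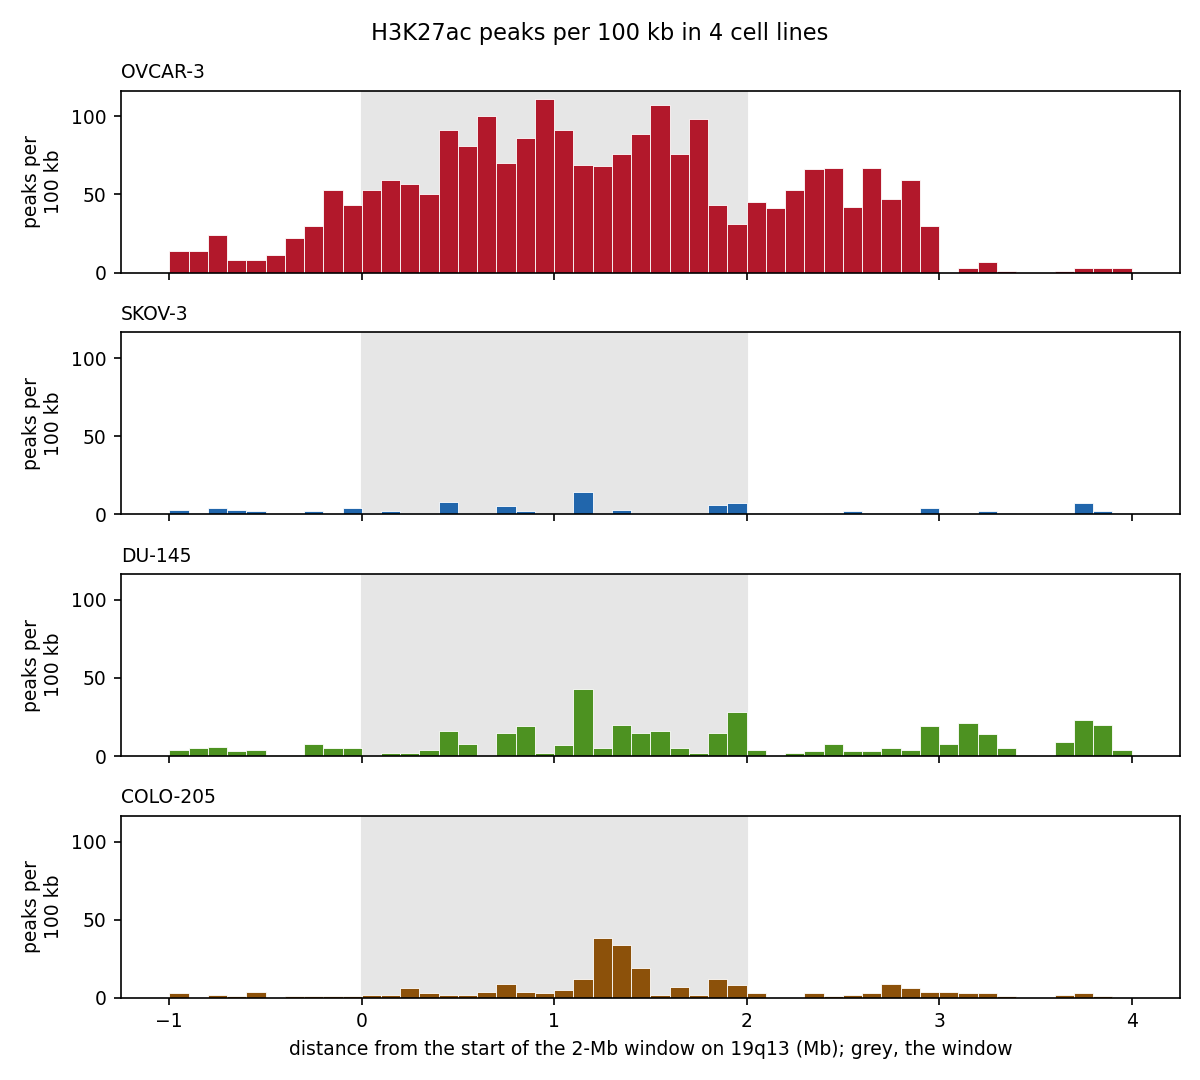
Number of H3K27ac peaks per 100 kb (y axis) against the distance from the start of the window in Mb (x axis), 1 panel per line, 1 library each, with the window in grey. The OVCAR-3 bars in the window lie between 31 and 111 peaks, while the highest bar in the window is 38 in COLO-205, 43 in DU-145 and 14 in SKOV-3.

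Counted in 100-kb bins, every one of the 20 window bins held at least 31 OVCAR-3 peaks, with a median of 76 and a maximum of 111. The other 572 bins of chromosome 19 had a median of 2. The peaks of the other lines were gathered more unevenly, with a median of 1 per window bin in SKOV-3, 4.5 in COLO-205 and 7.5 in DU-145. In COLO-205, 91 of its 176 window peaks fell between 39.2 and 39.5 Mb, from CAPN12 and LGALS4 (galectin 4, a lectin of the intestinal epithelium) to SARS2 (mitochondrial seryl-tRNA synthetase). In DU-145, 43 of 225 fell between 39.1 and 39.2 Mb, where ACTN4 lies, the gene of the actin cross-linker alpha-actinin 4. SKOV-3 also had its highest bin there, with 14 of 53. Without these clusters the rest of the window held 50 peaks per Mb in COLO-205 against 28.5 on the rest of chromosome 19, 95.8 against 50.4 in DU-145 and 20.5 against 13.9 in SKOV-3.

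The window was part of a longer run. Bins with at least 20 OVCAR-3 peaks followed each other without a break from 37.6 to 41.0 Mb, and these 34 bins held 2171 peaks that covered 52.7% of the bases. At the telomeric side the run stopped abruptly. Its last peak began at 40969979 and the next one at 41119290, with 148924 bp between them. From 41.0 to 42.0 Mb OVCAR-3 had 21 peaks over 0.892% of the bases, fewer than DU-145 with 105 peaks over 6.71%. At the centromeric side the density fell in steps, to 370 peaks per Mb from 37.6 to 38 Mb and 132 per Mb from 37 to 37.6 Mb. Chromosome 19 held 2 further runs of 10 such bins each in OVCAR-3, with 510 peaks over 56.5% of the bases from 29.7 to 30.7 Mb and 607 peaks over 73.5% from 54.0 to 55.0 Mb. In all, 49 bins outside the window were this dense, and some of them lay outside these runs.

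The limits of the window are round positions inside the longer run. At the right limit the covered share fell from 92.8% in the last 100-kb bin inside to 48.1% in the first one outside, and the median pileup from 83 to 50 fragments. Of the single peaks nearest the limits, the last peak outside on the left had a summit pileup of 23 fragments and a fold enrichment of 6.81, and the outermost one inside had 16 fragments and 4.83. On the right the values were 134 fragments and 10.5 inside, and 67 fragments and 14.004 outside. The summit pileup is the number of sequenced fragments that overlap the highest point of a peak. It was recovered from the deposited values, and the fold enrichment is that pileup over the local background computed by the peak caller.

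Inside the window the peaks fell into 3 stretches, whose limits were set after the values were seen. From 38 to 38.4 Mb, in the zinc finger cluster, 219 peaks covered 18.6% of the bases. They were narrow, with a median width of 279 bp, a median pileup of 21 fragments (95% interval 20 to 22) and a median fold enrichment of 5.43. From 38.4 to 39.8 Mb, 1213 peaks covered 67.2% of the bases with a median width of 515 bp, a pileup of 34 (33 to 35) and a fold enrichment of 6.25. From 39.8 to 40 Mb, across GMFG, SAMD4B, PAF1, MED29, ZFP36, PLEKHG2, RPS16, SUPT5H, TIMM50 and DLL3, only 74 peaks covered 88.0% of the bases. Their median width was 1243.5 bp, their pileup 77 (72 to 83) and their fold enrichment 13.3.

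The local background changed less than the pileup between the upper stretches. Its median was 2.63 fragments in the lowest stretch, where 42.9% of the peaks had the lowest background of the library, 4.52 in the middle and 4.78 in the highest. The step at 39.8 Mb was therefore a 2.26-fold rise of the median pileup with a 1.06-fold rise of the median background. Beyond the window, from 40 to 40.9 Mb, the fold enrichment stayed at a median of 10.8 with a pileup of 51. In the other lines the median pileup also rose at 39.8 Mb, from 28 to 45.5 fragments in COLO-205, from 27 to 40 in SKOV-3 and from 33 to 41 in DU-145, while the fold enrichment did not. From the middle to the highest stretch its median went from 4.05 to 3.93 in DU-145, from 4.01 to 3.77 in COLO-205 and from 5.59 to 4.87 in SKOV-3.

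**Figure D2:**
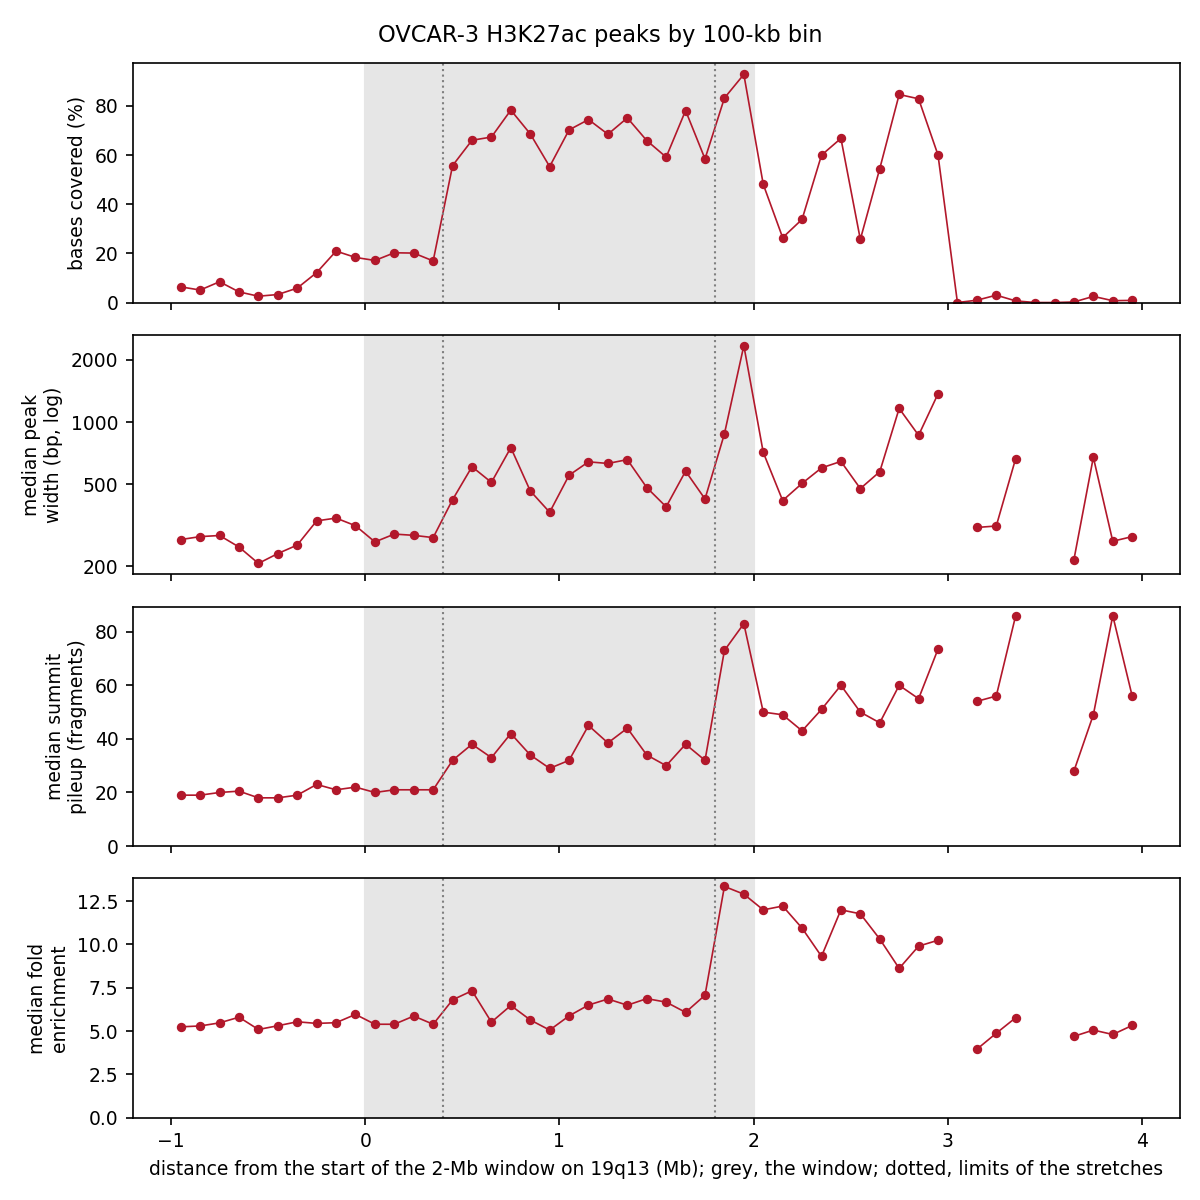
OVCAR-3 peaks by 100-kb bin against the distance from the start of the window in Mb, with the percent of bases covered, the median peak width in bp (log axis), the median summit pileup in fragments and the median fold enrichment from top to bottom. Points are bins of 1 library, grey is the window and dotted lines mark 38.4 and 39.8 Mb, where the median fold enrichment goes from 5.43 to 6.25 and from 6.25 to 13.3 between stretches.

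Single peaks of the window were of moderate height. The median fold enrichment was 6.22 (6.06 to 6.33) in the window, 6.77 (6.53 to 6.96) on the rest of chromosome 19 and 5.31 on the other chromosomes. The median pileup was 33 in the window against 43, and the median −log10 q 15.4 against 22.0. The sign of this difference depended on the comparison, and leaving the dense bins out of the rest of chromosome 19 turned it from −0.55 to 1.39 in fold enrichment. The median peak width was 470.5 bp in the window, 429 bp on the rest of chromosome 19 and 310 bp on the other chromosomes. Their spacing follows the density by which the window was chosen. Of the 1505 gaps between neighbouring peaks 57.7% were under 350 bp, the median gap was 290 bp, and only 14 gaps reached 5000 bp. On the rest of chromosome 19 the median gap was 645 bp and 35.6% were under 350 bp. In the dense run from 29.7 Mb 56.2% of the gaps were under 350 bp, and in that from 54 Mb 61.7%. The longest gap, of 11391 bp, lay in WDR87, a testis gene, and the next ones in ZNF540 and ZNF571, between genes, in ZFP30 and in ZNF573, all from 38 to 38.4 Mb.

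When peaks less than 350 bp apart were joined, 636 blocks with a median width of 939.5 bp remained, against a median of 473 bp on the rest of chromosome 19. The widest block, chr19:39878052-39916194, spanned 38143 bp across PAF1, MED29, ZFP36 and PLEKHG2. PAF1 is a subunit of the elongation complex of that name, MED29 a Mediator subunit, ZFP36 (tristetraprolin) a protein that destabilises AU-rich mRNAs and PLEKHG2 a guanine nucleotide exchange factor. The next blocks spanned 27414 bp in PAK4, a p21-activated kinase, 25685 bp in ACTN4, 22649 bp over TIMM50 and DLL3, and 21894 bp over ACTN4 and CAPN12.

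The strongest peak, chr19:39830646-39834766, lay over the shared start region of GMFG and SAMD4B. It had a fold enrichment of 40.1, a pileup of 359 fragments and a −log10 q of 436, and it overlapped peaks of all 3 other lines. The next were away from gene starts. One with a fold enrichment of 33.4 and a pileup of 197 lay 4056 bp from the nearest start, that of HNRNPL. One with 33.0 and 170 lay in an intron of SIPA1L3, a gene of a Rap GTPase-activating protein family, 108413 bp from the gene's nearest start. Neither met a peak of another line. The next, with 32.5 and 191, lay between LGALS7B and LGALS4 and met peaks of COLO-205 and DU-145, and the last of the 5, with 32.0 and 253, lay at the end of PLEKHG2 and met DU-145 and SKOV-3. Of the 20 peaks with the highest fold enrichment, 6 were within 1 kb of a protein-coding start, as were 8.76% of all 1506 window peaks.

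The widest peaks were of another kind. They spanned 13591 bp at the start of PLEKHG2, 12050 bp at PAF1 and MED29, 9376 bp in LRFN1 (a synaptic adhesion molecule), 9245 bp at RPS16 and SUPT5H and 8497 bp inside PAK4. The PLEKHG2, PAF1 and RPS16 peaks overlapped peaks of all 3 other lines. The LRFN1 peak met only DU-145 and the PAK4 peak only COLO-205. Several pileups were close to a ceiling. With the peak caller's default of 1 fragment per position and strand, the pileup cannot pass 398 in OVCAR-3, and 7 window peaks were within 10% of that.

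Taken over the whole list, the peaks were spread over the annotation much as the bases of the window are. Of the 1506 summits, 8.76% (7.39 to 10.3) lay no more than 1 kb from the start of a protein-coding transcript, 10.2% in another exon, 59.8% in an intron and 21.2% outside genes. Of all window positions the same classes hold 10.4%, 9.83%, 61.2% and 18.5%. Among the 218 window peaks left when every library was held to its 14001 best peaks, 27.1% lay near a start. On the rest of chromosome 19, 28.3% of the OVCAR-3 summits were within 1 kb of a start. In the other lines the share near starts was also lower in the window than on the rest of the chromosome, at 28.4% against 38.2% in COLO-205, 34.2% against 41.7% in DU-145 and 41.5% against 66.2% in SKOV-3. Among the stretches, the share near starts was 7.31% from 38 to 38.4 Mb, 7.91% from 38.4 to 39.8 Mb and 27.03% from 39.8 to 40 Mb.

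Few OVCAR-3 window peaks had a counterpart in another line, while almost every peak of another line had one in OVCAR-3. Of the 1506 peaks, 273 (18.1%, 16.2 to 20.2) overlapped a peak of at least 1 other line by at least 1 bp, against 34.3% of the OVCAR-3 peaks on the rest of chromosome 19. At a −log10 q of at least 10 the window share was 8.03%, and with an overlap of at least 50% it was 8.43%. The 1506 peaks are the number by which the window was chosen, while DU-145 had 225 peaks there, COLO-205 176 and SKOV-3 53. A low shared part of the OVCAR-3 peaks is thus in part built into that choice. DU-145 met 171 of the 1506 (11.4%, against 29.7% on the rest of chromosome 19), COLO-205 135 (8.96% against 15.1%) and SKOV-3 36 (2.39% against 13.3%), and 19 met all 3 lines (1.26% against 7.94%). The share was 7.76% from 38 to 38.4 Mb, 18.96% from 38.4 to 39.8 Mb and 35.1% from 39.8 to 40 Mb. In the other direction, 175 of 176 COLO-205 peaks of the window lay under OVCAR-3 peaks, against 39.5% on the rest of the chromosome. The values were 223 of 225 against 38.9% for DU-145 and 52 of 53 against 73% for SKOV-3. The bases under OVCAR-3 peaks, 59.6% in the window and 5.05% elsewhere, differ in the same direction.

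Where OVCAR-3 shared a peak with another line, its pileup was higher than the same pair of lines gave elsewhere. The log2 ratio of the pileups was centred on the median of all shared peaks of the pair, which removes the difference in depth. Against DU-145 the median in the window was 0.90 (0.79 to 0.97, 171 peaks), against 0.00 on the rest of chromosome 19, and 68 of the 171 were above 1 on the log2 scale, where 11% of those on the rest of the chromosome were. Against SKOV-3 it was 1.23 (0.78 to 1.53, 36 peaks), against −0.23, and 23 of 36 were above 1, where the rest of the chromosome had 7.39%. The comparison with COLO-205 depended on the peaks used. Its median was 0.26 (0.15 to 0.50, 135 peaks) against 0.23 on the rest of chromosome 19, and 34 of 135 were above 1, where the rest of the chromosome had 15.3%. The difference between window and rest was 0.03 here, 0.65 at a −log10 q of at least 10, 0.77 near starts and 1.16 with equal numbers of peaks per library, and it fell just below 0 under 2 other choices.

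The COLO-205 ratio was uneven along the window. It was 0.22 at 111 shared peaks from 38.4 to 39.8 Mb, the stretch that holds the local COLO-205 cluster, and 1.61 at the 14 shared peaks from 39.8 to 40 Mb. In that last stretch the ratio was also highest against DU-145 (1.801, 21 peaks) and SKOV-3 (1.86, 8 peaks), and each of these 14, 21 and 8 pairs lay above 0. The limits of the stretch were set after the OVCAR-3 pileups were seen, and these are the numerator of the ratio. A high ratio there is thus in part built in. The comparisons also share OVCAR-3 peaks, 7 of which met all 3 lines. Several of these pileups were near the ceiling of 398 fragments, which limits their ratios. A difference of this kind in pileup is not a difference per DNA copy, and the number of copies in each line was not tested.

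**Figure D3:**
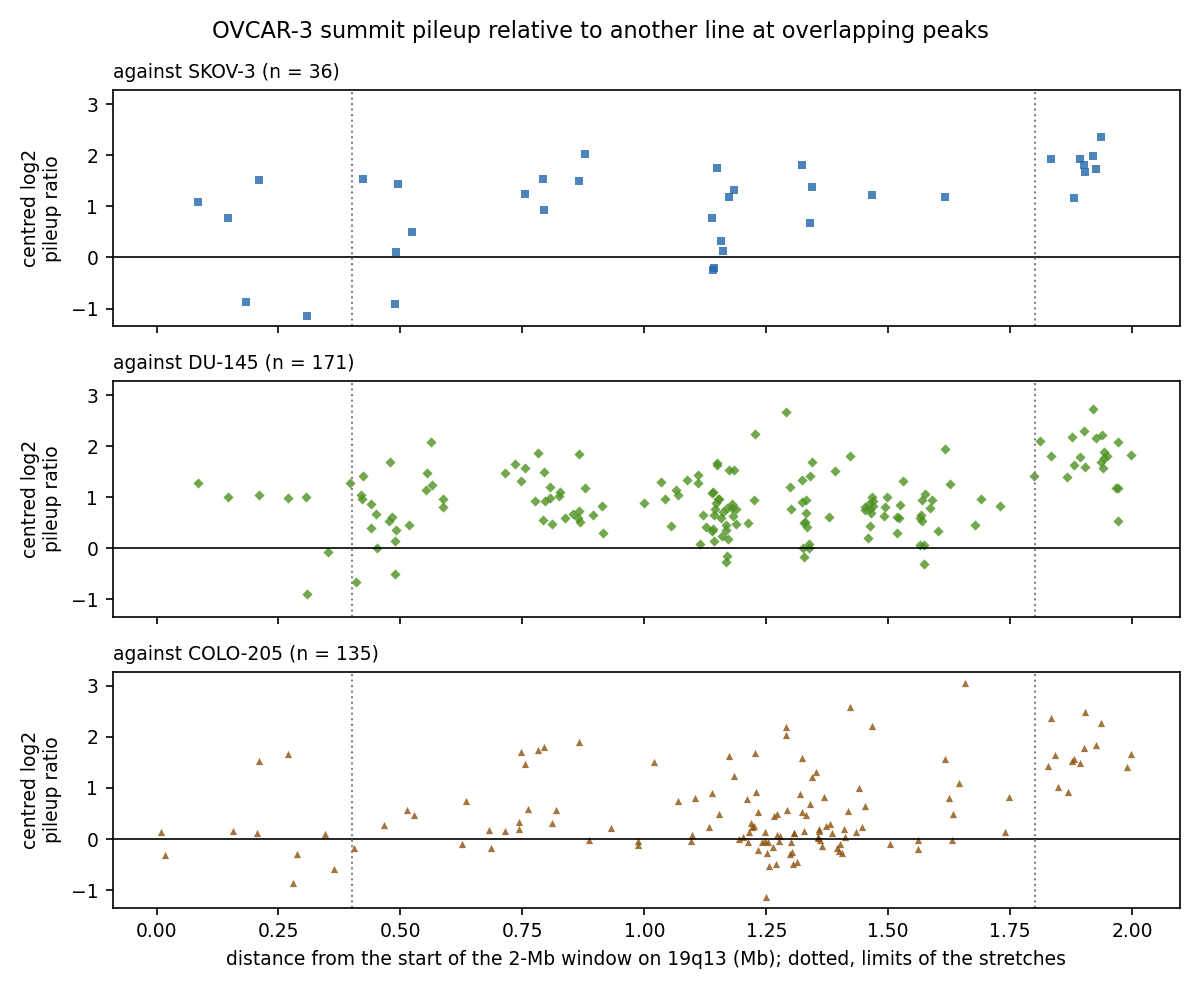
Log2 ratio of the OVCAR-3 summit pileup over that of SKOV-3, DU-145 or COLO-205 at overlapping peaks (y axis, centred on all shared peaks of the pair) against the distance from the start of the window in Mb, 1 point per OVCAR-3 peak, with dotted lines at 38.4 and 39.8 Mb. The points beyond the last dotted line lie highest, with medians of 1.86, 1.801 and 1.61, and those against COLO-205 in the middle stretch scatter between −1.13 and 3.06 around a median of 0.22. The dotted lines were placed after the OVCAR-3 pileups were seen.

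The window holds the start of 60 protein-coding genes. All 60 had an OVCAR-3 peak within 1 kb of an annotated start, where 58% of the genes on the rest of chromosome 19 did. This count carries little information, because 94.0% of all window positions have an OVCAR-3 peak within 1 kb. In the other lines the counts were 48 in DU-145 (60.6% on the rest of the chromosome), 35 in COLO-205 (41.3%) and 24 in SKOV-3 (33.3%), and in them 19.7%, 16.1% and 4.97% of window positions have a peak within 1 kb. These counts depended on the peaks used, and COLO-205 had 16 and SKOV-3 13 at a −log10 q of at least 10, while COLO-205 had 13 with equal numbers of peaks per library. A promoter peak was found in all 4 lines for 19 of the 60 genes and only in OVCAR-3 for 7. On the rest of the chromosome these were 312 and 83 of 1420 genes, the latter 5.85%. Only 824 of those 1420 had an OVCAR-3 promoter peak, while all 60 window genes had one. The 824 are therefore the like base for the 312 and the 83. In OVCAR-3, genes that start back to back share 1 promoter peak and its value, for example GMFG and SAMD4B, PAF1 and MED29, RPS16 and SUPT5H, SARS2 and MRPS12, SIRT2 and NFKBIB, WDR87 and SIPA1L3. In the other lines some of these pairs have different values, such as RPS16 with 2.33 and SUPT5H with 2.94 fragments per 1000000 ChIP tags in DU-145.

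The peaks covered most of most gene bodies. Of the 46 window genes of at least 5 kb, 39 had at least 50% of the gene body under OVCAR-3 peaks, where 3.69% of such genes on the rest of chromosome 19 did. This follows from the choice of the window, since 59.6% of all its bases were under OVCAR-3 peaks, against 5.05% elsewhere. The highest shares were 98.9% in MED29, 96.1% in TIMM50 (a subunit of the mitochondrial inner membrane translocase) and 92.8% in SUPT5H (the elongation factor SPT5). In the other lines the same genes stood at 5.84% or less in COLO-205, 16.8% or less in DU-145 and 2.46% or less in SKOV-3. The lowest shares in OVCAR-3 were 12.7% in ZNF571, 12.98% in ZNF540 and 19.2% in ZNF607.

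The zinc finger genes carried promoter peaks with little of the gene body. ZNF540, ZNF571, ZFP30, ZNF607 and ZNF573 had a promoter peak in OVCAR-3, DU-145 and SKOV-3, and ZNF607 and ZNF573 also in COLO-205. Of all window genes, 100% had one in OVCAR-3, 80% in DU-145, 40% in SKOV-3 and 58.3% in COLO-205. Their bodies were covered to between 12.7% and 19.8% in OVCAR-3 and to at most 2.77% in any other line. The promoter pileup below is normalised to fragments per 1000000 ChIP tags of the library. In OVCAR-3 it was between 3.92 and 4.53 at these genes, against 1.75 to 2.14 in DU-145, 0.938 to 1.70 in SKOV-3 and 0.940 to 1.11 in COLO-205.

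The 15 widely expressed genes had high promoter pileups, though genes of other groups, such as PLEKHG2 (11.1) and ZFP36 (10.8), were also high and YIF1B, one of the 15, stood at 4.01. The OVCAR-3 values of PLEKHG2, ZFP36, HNRNPL and RPS16, among others, are near the ceiling of 398 fragments and are not ranked. The median normalised pileup was 9.27 in OVCAR-3, 2.67 in DU-145, 2.098 in SKOV-3 and 1.91 in COLO-205, over the genes with a promoter peak in each line (15, 15, 8 and 11). HNRNPL, the gene of a splicing regulator, had 11.4 in OVCAR-3, 5.40 in COLO-205, 4.598 in SKOV-3 and 4.06 in DU-145. RPS16, a protein of the small ribosomal subunit, had 10.9 in OVCAR-3 and between 2.098 and 2.33 in the others. EIF3K, an initiation factor subunit, had 7.02 in OVCAR-3 and 2.47 in DU-145, with no promoter peak in COLO-205 or SKOV-3. The median share of the gene body was 85.9% in OVCAR-3, with a range of 59.7% to 100%, and 7.55% in COLO-205, 10.9% in DU-145 and 1.15% in SKOV-3.

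**Figure D4:**
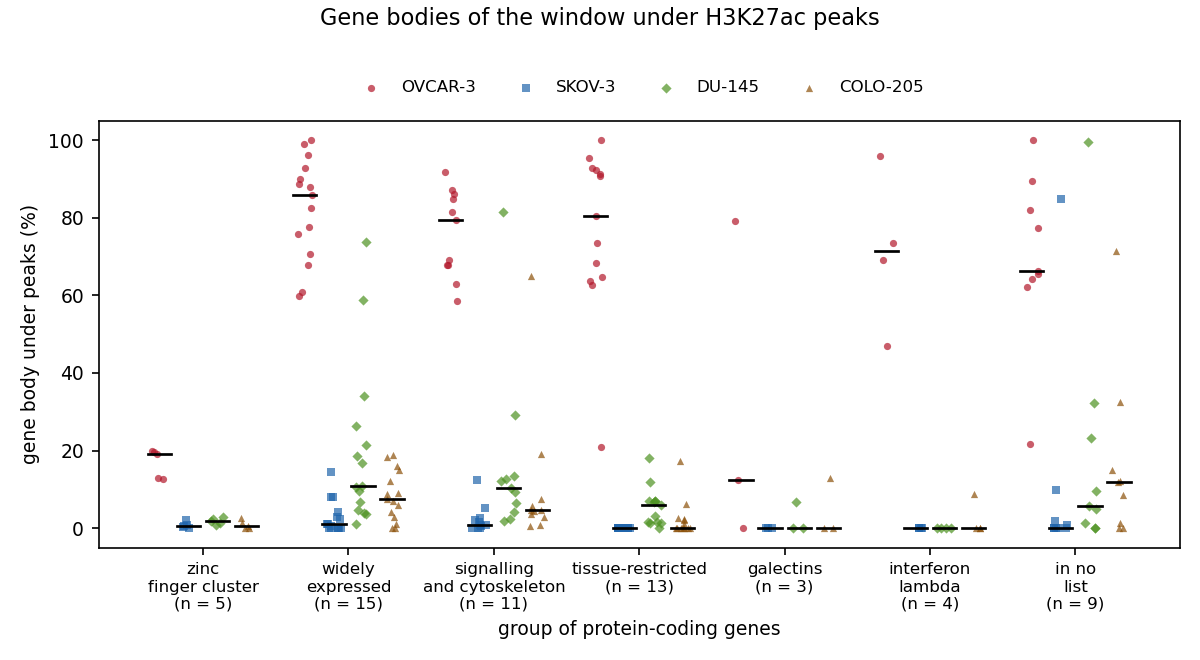
Percent of each protein-coding gene of the window that lies under H3K27ac peaks (y axis), by gene group and line, 1 point per gene with small sideways offsets and black bars at the median. The OVCAR-3 medians lie at 85.9% for widely expressed and 80.5% for tissue-restricted genes but at 19.2% for the zinc finger genes, and the medians of the other lines are at 12.0% or less in every group.

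The genes of signalling and the cytoskeleton were covered alike, with a median of 79.3% and a range of 58.6% to 91.8% over 11 genes in OVCAR-3. PAK4 had a normalised promoter pileup of 9.18 in OVCAR-3, 2.59 in SKOV-3, 2.38 in COLO-205 and 2.28 in DU-145, and 84.7% of its body was under OVCAR-3 peaks against 3.67% or less in the others. ACTN4 had 6.99 in OVCAR-3, 2.85 in COLO-205, 3.14 in DU-145 and 2.63 in SKOV-3. It was also the gene with most peaks in DU-145, 37 over 29.1% of its body, beside 50 over 79.3% in OVCAR-3. SIPA1L3, the longest gene of the window with 301162 bp, held 274 OVCAR-3 peaks over 63.0% of its body and 25 or fewer in each other line. SPINT2, the gene of an inhibitor of serine proteases, had 9.15 in OVCAR-3 and between 2.50 and 2.94 in the others. ZFP36, an immediate early gene, was covered to 87.1% in OVCAR-3, 64.9% in COLO-205, 81.4% in DU-145 and 12.4% in SKOV-3, so that its coverage was nearly as high in DU-145.

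Genes known from single tissues were covered as well. All 13 on the list had a promoter peak in OVCAR-3, as all 60 window genes did. COLO-205 had one at 6 of the 13 and at 58.3% of all window genes, DU-145 at 10 and 80%, and SKOV-3 at 1 and 40%. Some of these peaks have the same value at a neighbour of another group. In OVCAR-3 this held for GMFG and SAMD4B, MAP4K1 and EIF3K, GGN and SPRED3, and WDR87 and SIPA1L3. The SKOV-3 peak was that of GMFG and SAMD4B. The median share of the body in OVCAR-3 was 80.5%. RYR1, the calcium release channel of skeletal muscle, held 163 OVCAR-3 peaks over 62.7% of its 161583 bp, and 7 in DU-145 and 6 in COLO-205. CATSPERG, a subunit of the sperm calcium channel, was covered to 68.3% in OVCAR-3 and 7.11% in DU-145, with no peak in COLO-205 or SKOV-3. The Notch ligand gene DLL3 was covered to 90.8%, 6.31% in COLO-205 and 3.13% in DU-145. SYCN, a protein of pancreatic zymogen granules, and RASGRP4, a mast cell exchange factor, had a promoter peak only in OVCAR-3, with normalised pileups of 1.23 and 1.96.

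The lambda interferon genes were among those with the lowest promoter pileups. IFNL1, IFNL2, IFNL3 and IFNL4 encode type III interferons, which act on epithelia. Each had a promoter peak in OVCAR-3, like every gene of the window, and none in the other lines. On the rest of chromosome 19 this pattern was found in 83 of the 824 genes with an OVCAR-3 promoter peak, 5.85% of all genes there. The normalised pileup was 1.90 at IFNL1, 1.26 at IFNL4, 1.05 at IFNL3 and 0.965 at IFNL2. Between 46.9% and 95.9% of the gene was covered in OVCAR-3. In the other lines only IFNL4 lay partly under a peak, to 8.89% in COLO-205. IFNL2 and IFNL3 are near-identical copies, so that reads of one may have been placed on the other or dropped, and their values are uncertain. The same holds for LGALS7 and LGALS7B, of which 0% and 12.4% lay under OVCAR-3 peaks although both stand amid covered neighbours. LGALS4 was covered to 79.0% in OVCAR-3, 12.8% in COLO-205, 6.76% in DU-145 and 0% in SKOV-3, and its normalised promoter pileup was 2.19, 1.44 and 0.639 in the lines with a peak, in the same order.

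The 19 genes with a promoter peak in all 4 lines allow the promoters to be compared directly. In each of the 19 the normalised pileup in OVCAR-3 was more than 2 times the highest of the other lines, where 10.3% of such genes on the rest of chromosome 19 were. On the rest of the chromosome the median ratio was 1.21 over 312 genes. The OVCAR-3 pileup of 9 of the 19 genes was within 10% of the ceiling of 398 fragments given above, HNRNPL with 389 among them, so that their ratios (HNRNPL 2.11, ZFP36 4.08, SUPT5H 3.70 and RPS16 4.67) are limited by it and are not ranked, and the median of 3.18 over the 19 genes, which is the ratio of PLEKHG2, is limited likewise. The 10 genes below it ran from 2.07 to 3.81. Among them ZNF573 (2.07), FBXO17 (2.12), ZNF607 (2.18) and ACTN4 (2.23) had small ratios, and PSMD8 (3.81) and PAK4 (3.55) large ones. Of the 19 genes, several share a promoter peak, as given above, and these values come from single libraries.

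**Figure D5:**
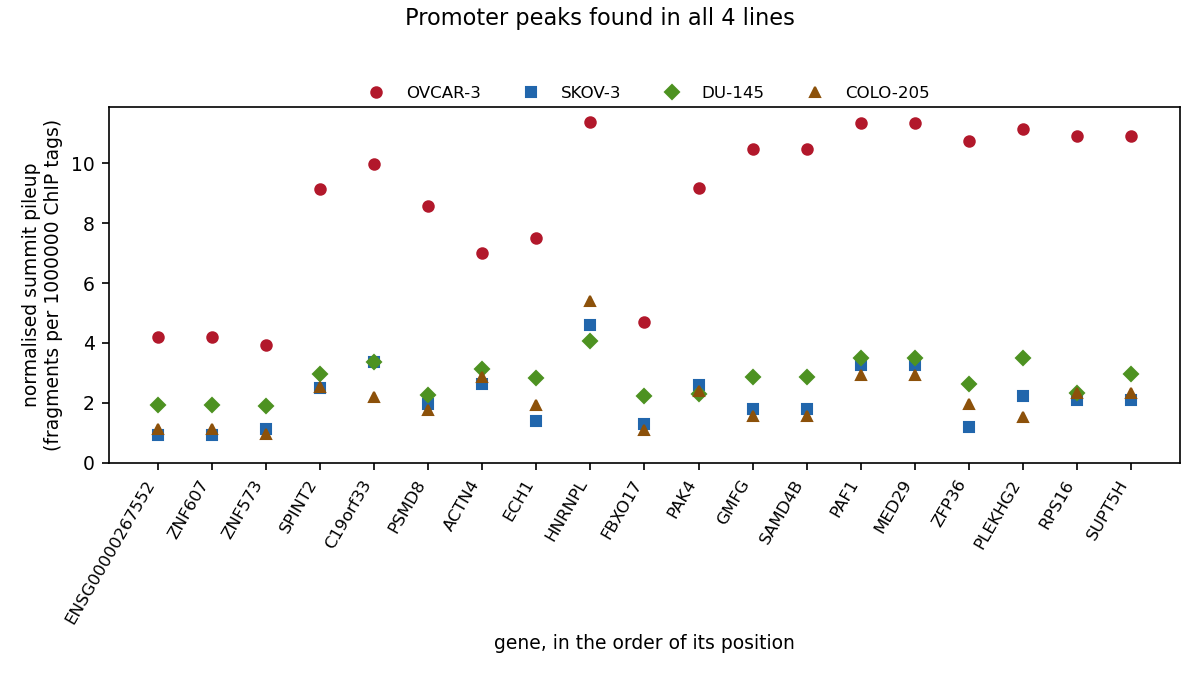
Summit pileup of the highest promoter peak in fragments per 1000000 ChIP tags (y axis) for the 19 genes with a promoter peak in all 4 lines, in the order of their position (x axis), 1 point per line. OVCAR-3 is highest at every gene, from 3.92 at ZNF573 to 11.4 at HNRNPL, and no other line passes 5.40.

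The sequence under the peaks was moderately rich in GC. In the summit base and 150 bp on each side of it, the median GC content of the OVCAR-3 window peaks was 52.8%, against 55.1% on the rest of chromosome 19 and 49.8% over all tiles of the same length in the window. With equal numbers of peaks per library the difference from the rest of chromosome 19 turned, from −2.33 to 0.33 percentage points. Tiles wholly under peaks had a median of 54.5% and those wholly outside 41.9%. More than 1 kb from starts, the median was 52.5% in the window and 52.8% on the rest of the chromosome. Window peaks that met another line stood at 57.1% and those of OVCAR-3 alone at 52.2%. The COLO-205 and SKOV-3 peaks of the window stood at 61.1% and 60.1%, and the DU-145 peaks at 55.1%.

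Motif letters were counted on both strands of the same stretch. The AP-1 letters TGANTCA, bound by FOS and JUN dimers, were in 7.37% (6.10 to 8.81) of the window peaks, 6.35% of the OVCAR-3 peaks on the rest of chromosome 19 and 7.66% of all window tiles. The GC box GGGCGG, bound by SP1, was in 16.3% of the window peaks, 27.8% on the rest of the chromosome and 12.7% of tiles. The E-box CACGTG was in 6.24%, 5.11% and 4.67%, and the ETS letters CCGGAAG in 1.93%, 4.18% and 1.52%. The EGR1 letters GCGTGGGCG were in 3 window peaks, 0.199%, and in 0.389% and 0.135% of the others. EGR1 letters followed by a G hold a GC box, and a match of letters is not a bound site. The interval for AP-1 in the window peaks includes the share of all window tiles.

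The labels were checked on marker genes, with promoter peaks at 60.6% of all protein-coding genes in OVCAR-3, 31.7% in SKOV-3, 59.99% in DU-145 and 51.3% in COLO-205. OVCAR-3 had them at all 6 ovarian carcinoma markers (PAX8, WT1, MUC16, MSLN, SOX17 and EMX2), but COLO-205 had them at 4, DU-145 at 3 and the ovarian line SKOV-3 at only 2. All 5 epithelial markers had one in OVCAR-3, COLO-205 and DU-145, and 2 did in SKOV-3. COLO-205 had peaks at 4 of 6 colon markers, with none at CDX1 or CDH17, and at the prostate markers KLK3, KLK2 and TMPRSS2. DU-145 had a peak at the prostate marker TMPRSS2, with none at KLK3, KLK2 or HOXB13, while OVCAR-3 had one at TMPRSS2 and at HOXB13. The 3 mesenchymal markers VIM, ZEB1 and FN1 all had one in SKOV-3, 2 of them in DU-145 and in OVCAR-3, and 1 in COLO-205. LGALS4, one of the colon markers, lies in the window and had a promoter peak in OVCAR-3 and DU-145 too. CDX2, HNF4A and VIL1, the other colon markers with a peak in COLO-205, had one in no other line.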

How the data were processed

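H3K27ac ChIP-seq peaks were analysed in 1 library per line of OVCAR-3, SKOV-3, DU-145 and COLO-205. The authors aligned reads to hg19 using Bowtie2 2.1.0 and called peaks per library using MACS2 2.1.0.20150603 (versions from the submitters' processing notes). The deposited values are a score (10 times the −log10 q, cut to a whole number), a fold enrichment, which is the ratio of the summit pileup to the local background, and the −log10 of p and of q. All hold within 1 library and none is scaled between libraries. Whether input reads entered the background is not given in the sources used here. A merging of peaks under 350 bp apart is described by the authors but not seen in the deposited lists, and was tried as an alternative.

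Pileup and background at each summit were solved from the fold enrichment and −log10 p within 0.001 on the −log10 scale, for 100% of peaks and 100% of 19998 low and 20000 high simulated summits. Tags per library came from the lowest background, the smallest width and 2.7e+09 genome positions. Members and gene lists were chosen with earlier results of these data known. Named genes are those of the lists (51 of 52 listed genes start in the window, ZNF781 was not among its protein-coding genes), those of the 5 strongest and 5 widest peaks, and the 3 most and 3 least covered genes of at least 5 kb. Other genes were named after their values were seen. Annotation was GENCODE lifted to GRCh37, with the GRCh37 sequence. With 1 library per line no test was made. The alternatives changed the −log10 q minimum (5 or 10), joined close peaks, took 14001 peaks per library, or changed distances, overlaps and references. A reference without dense bins was added after the data were seen. Python 3.11.15, numpy 2.4.6, scipy 1.17.1 and pandas 2.3.3 were used.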

Additional observations from a re-analysis of the deposited data

How the results depend on the processing

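No paired analysis was possible because each line is 1 library with no replicate. The choices tried left 68 of 110 alternative values inside the interval of the reported value or within 1.5 times the reported count, moved 35 and reversed 7. Merging peaks less than 350 bp apart gave 636 OVCAR-3 peaks in the window over 67.3% of it, a density 7.32-fold that of the rest of chromosome 19, 25.3% overlapping another line, a median GC content 3.65 points below the rest (−3.65) and a fold enrichment 0.63 above it. Taking the 14001 best peaks of every library gave 218 peaks over 22.0% of the window, a 4.35-fold density, 27.1% near a start, 22.5% shared, a fold enrichment 0.19 above the rest and a GC content 0.33 points above it. A −log10 q of at least 10 gave 54.1% covered, 8.03% shared and a fold enrichment difference of −1.78, and one of at least 5 gave 59.4% covered. The fold enrichment difference was 0.86 against the rest of the genome and 1.39 against the rest of chromosome 19 without dense bins, where the density was 24.4-fold. Starts within 500 bp or 5 kb gave 5.71% and 35.9%, an overlap of at least 50% gave 8.43% shared, and 50 bp on each side of the summit gave 1.79% with AP-1 letters and a GC difference of −1.98.

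Against SKOV-3 the pileup ratio in the window was 1.46 (1.01 to 1.75) above that of the rest of chromosome 19. Over the alternatives this difference ran from 1.23 to 1.57, inside the interval, and an overlap of at least 50% left too few pairs for a value. Against DU-145 the difference (0.90) was 0.99 with equal numbers of peaks, 0.78 with fold enrichment and 1.07 near starts. Against COLO-205 the difference of 0.03 from the rest of chromosome 19 was unstable, at −0.00085 with −log10 q of at least 5, 0.65 with at least 10, 0.28 merged, 1.16 with equal numbers of peaks, −0.0067 with an overlap of at least 50% and 0.77 near starts. The cause was not tested. All 60 promoters kept a peak except under equal numbers of peaks, where 51 did. The SKOV-3 list is the shortest and its library the shallowest, the cause of its length was not tested, and absence from a list is not absence of the mark.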
